A study of Mus musculus with 15 samples.

Results

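The genes described here are 9 transcripts known as marks of the fetal-like state that colonic epithelium enters while it repairs a wound: *Plet1*, *Clca4b*, *Sprr1a*, *Krt7*, *Ly6a*, *Plaur*, *Anxa1*, *Clu* and *Ctgf*. They were chosen by symbol, with earlier results of these data known. All 9 were found among the 32544 symbols of the count table and among the 17477 genes that passed the filter on low counts. The RNA came from whole mouse colon of 3 *Tert* genotypes, where *Tert* encodes the reverse transcriptase of telomerase. WT mice carried the intact gene, VAA mice a knock-in allele whose TERT protein is enzymatically inactive, and KO mice no functional *Tert*. Mice were 8 to 12 weeks old and were either untreated (2 libraries per genotype) or given DSS (dextran sulfate sodium, a polysaccharide toxic to the lining of the colon, 3 libraries per genotype). Treated mice drank 3% DSS for 4 days and then water without DSS for another 4, and colon was collected on day 8. All 6 groups were whole tissue, and the labels describe no Cre driver, no cell sorting and no separate time course. Fewer cells of a type and less RNA per cell cannot be told apart in such tissue.

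After injury, surviving colonic epithelial cells can leave the adult stem cell program for a transient state that resembles fetal gut epithelium and spreads over the wound. The state is known for signals from the extracellular matrix acting through the coactivators YAP and TAZ with TEAD factors, and for genes of the cell surface, the cytoskeleton and the protease system. Among the 9 genes, *Ly6a* (Sca-1) is the usual surface mark of the fetal-like cells, *Clu* marks the revival stem cell, *Plet1* and *Clca4b* mark surface epithelium of the wound, and *Sprr1a* and *Krt7* belong to stress-induced barrier and cytoskeleton genes. *Anxa1* encodes annexin A1, which acts on formyl peptide receptors and in resolution of inflammation, *Plaur* the urokinase receptor, and *Ctgf* a secreted matrix protein that is a textbook target of YAP.

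Library totals ran from 10.56 to 17.54 M counts, and levels are given as CPM (counts divided by the library's total in M and by its trimmed mean of M values factor). *Tert* had 23 to 40 counts in the 5 WT libraries, 7 to 29 in the 5 VAA libraries and 0 or 1 in the 5 KO libraries, as the labels say. Replicate 2 of untreated WT and replicate 2 of untreated KO were male by their *Ddx3y* counts (914 and 868, against 5 to 20 elsewhere). VAA DSS replicate 3 stood apart from the rest, with a score of 102 on the second principal component against -43.5 to 20.1 in the other 14 libraries, and it had the lowest total. The labels do not state that the samples of a group are separate animals. Untreated WT and untreated KO each held libraries that differ in sex, so the samples of those groups came from different animals. For the other groups this is not known. The P values describe the spread among these libraries, which may be technical in part. A gene is said to have risen or fallen where edgeR's quasi-likelihood test gave a Benjamini-Hochberg adjusted P under 0.05 over the 17477 genes. The summed level of 10 general epithelial genes (the epithelial reference) was 8329 to 10560 CPM in untreated colon. After DSS it was 8903 to 9453 CPM in WT, 7931 to 9852 in VAA and 11130 to 13050 in KO.

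The gene positions are on GRCm38 (GENCODE M21), the same assembly as the mm10 build that the submitters' processing notes name. *Plet1* lies on chromosome 9 (50494525 to 50505482, plus strand), *Clca4b* on chromosome 3 (144910921 to 144932529, minus strand) and *Sprr1a* also on chromosome 3 (92483952 to 92485895, minus strand). *Krt7* lies on chromosome 15 (101411043 to 101430313, plus strand) and *Ly6a* on the same chromosome (74994877 to 74998031, minus strand). *Plaur* lies on chromosome 7 (24462484 to 24475968, plus strand), *Anxa1* on chromosome 19 (20373428 to 20390944, minus strand) and *Clu* on chromosome 14 (65968483 to 65981547, plus strand). *Ctgf* lies on chromosome 10 (24595442 to 24598683, plus strand), where the annotation has it under its newer symbol *Ccn2*. All 9 are protein-coding, and the counts cover whole genes.

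Promoter sequences from RefSeq (GRCm38.p6) were found for 6 of the 9 genes, all but *Ly6a*, *Clu* and *Ctgf*. The 4 shown here belong to the members with the largest log2 fold changes with DSS averaged over genotypes, and each is read 5′ to 3′ on the gene's strand and ends just before the gene. Capitals mark matches to TGANTCA (the AP-1 motif) and TATAAA (the TATA box), where a TATA box on the opposite strand reads TTTATA.
Plet1: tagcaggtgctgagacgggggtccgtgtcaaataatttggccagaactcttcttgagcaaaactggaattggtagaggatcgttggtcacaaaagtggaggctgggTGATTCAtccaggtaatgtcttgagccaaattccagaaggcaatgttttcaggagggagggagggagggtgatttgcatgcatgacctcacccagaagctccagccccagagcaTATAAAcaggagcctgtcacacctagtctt
Clca4b: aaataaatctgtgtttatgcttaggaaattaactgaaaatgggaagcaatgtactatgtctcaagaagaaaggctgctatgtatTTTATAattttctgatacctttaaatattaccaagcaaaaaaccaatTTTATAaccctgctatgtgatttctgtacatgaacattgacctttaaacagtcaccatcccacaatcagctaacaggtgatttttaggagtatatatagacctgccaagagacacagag
Plaur: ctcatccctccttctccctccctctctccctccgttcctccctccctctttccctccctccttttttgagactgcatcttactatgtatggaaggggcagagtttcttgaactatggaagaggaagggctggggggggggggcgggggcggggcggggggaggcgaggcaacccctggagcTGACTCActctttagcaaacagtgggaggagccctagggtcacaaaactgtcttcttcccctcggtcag
Sprr1a: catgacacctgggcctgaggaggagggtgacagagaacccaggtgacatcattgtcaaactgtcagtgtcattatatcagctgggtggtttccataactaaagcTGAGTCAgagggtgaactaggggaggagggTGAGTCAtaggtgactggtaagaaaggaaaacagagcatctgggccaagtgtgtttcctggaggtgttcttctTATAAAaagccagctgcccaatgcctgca
These runs are chr9:50494275-50494524 (plus strand), chr3:144932530-144932779 (minus), chr7:24462233-24462482 (plus) and chr3:92485896-92486131 (minus), and the last is 236 bases because it stops where an annotated exon begins. Both strands of the 250 bases before each RefSeq start were searched, and no matches overlapped. TGANTCA occurred in 3 of the 6 member promoters (*Plet1*, *Plaur* and *Sprr1a*, the last with 2 matches that begin 146 and 116 bases before the start) and in 6.75% of all 32851 promoters. TATAAA occurred in 4 of the 6 (*Plet1*, *Clca4b*, *Sprr1a* and *Anxa1*) and in 12.4% of all promoters. GGAATG, the core of the TEAD motif, occurred in 1 of the 6 (*Anxa1*, 236 bases before the start) and in 12.6% of all promoters. These matches describe letters in a window and were not tested for binding.

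**Figure D1:**
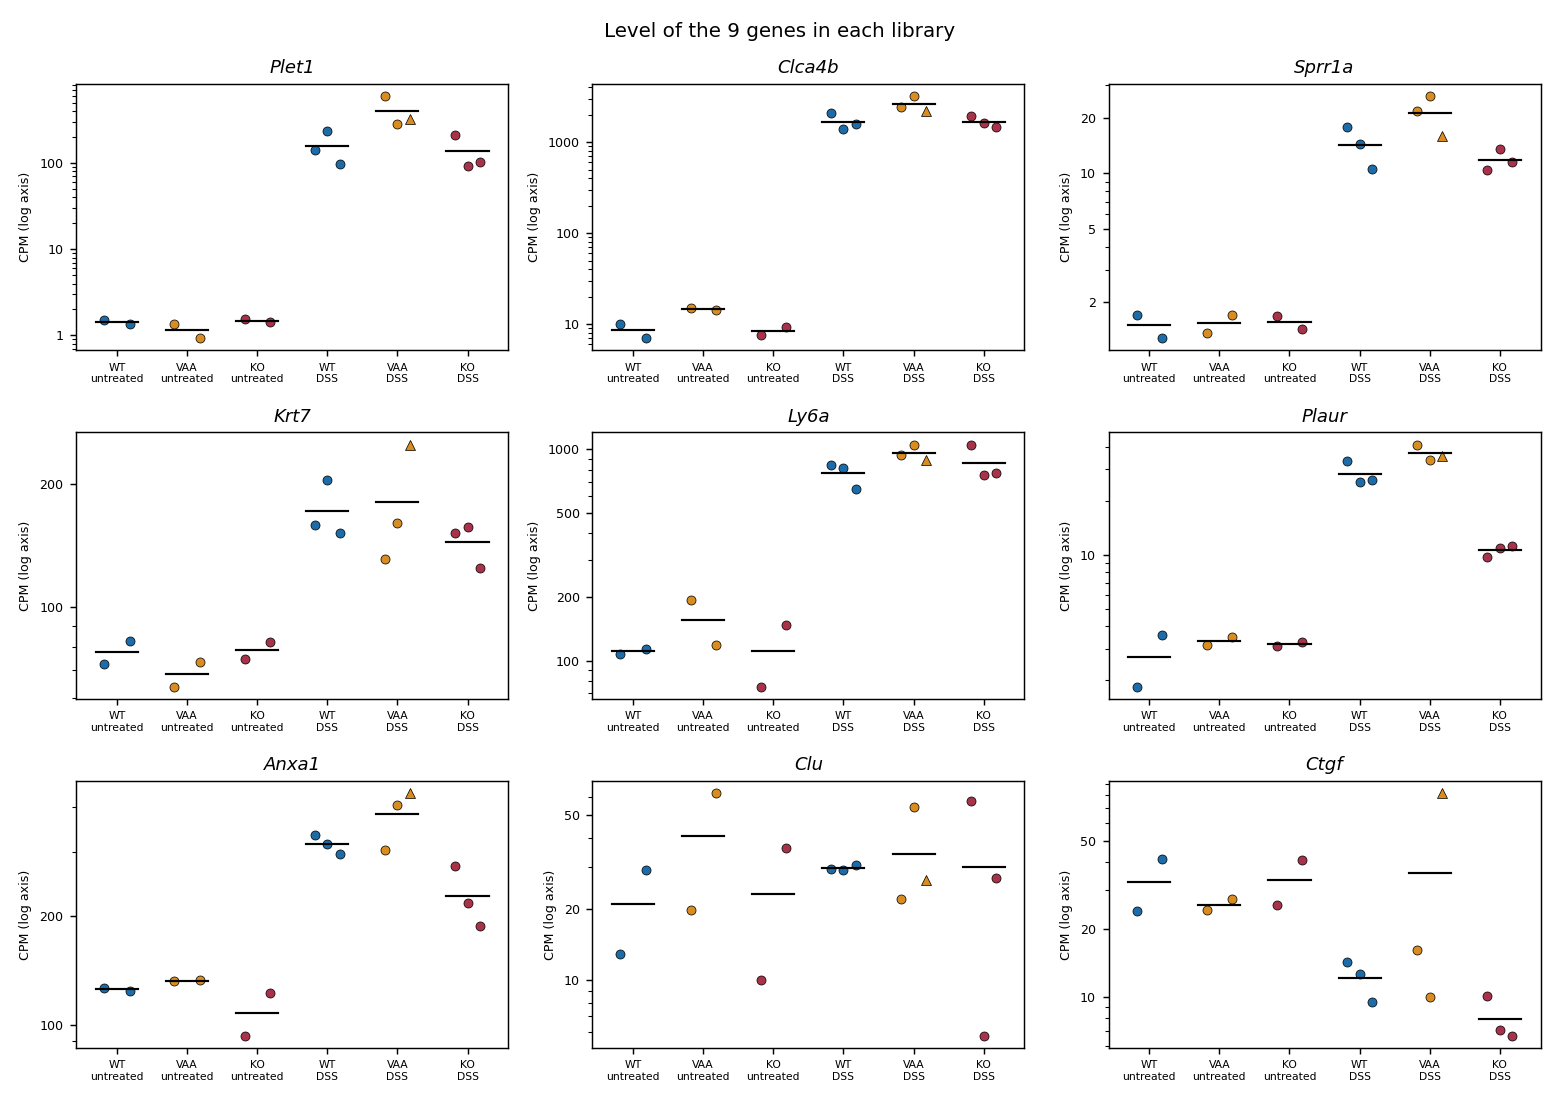
Each panel plots 1 gene, with CPM on a log axis against the 6 groups, points for libraries (a triangle for VAA DSS replicate 3) and bars for group means. DSS libraries of *Plet1*, *Clca4b*, *Sprr1a*, *Krt7*, *Ly6a*, *Plaur* and *Anxa1* all lie above the untreated ones, KO DSS is lowest for *Plaur*, and *Clu* and *Ctgf* overlap between treatments.

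The first question was which of the 9 genes differ between DSS and untreated colon. Averaged over the genotypes, 7 of the 9 rose with DSS, by 2.20-fold (*Krt7*) to 190.3-fold (*Clca4b*), *Ctgf* fell, and *Clu* was not called. Among all genes tested 22.5% rose and 20.0% fell in that comparison. The same 7 rose in each genotype on its own, where 14.1% of genes rose and 12.5% fell in WT, 10.9% rose and 9.54% fell in VAA, and 5.59% rose and 5.06% fell in KO. For all 7, every one of the 9 DSS libraries was above every one of the 6 untreated libraries, which held for 6.89% of genes tested. The median log2 fold change over the 9 genes was 2.79 averaged over genotypes, against 0.00957 over all genes tested.

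*Plet1*, which encodes a membrane-anchored surface protein of wound-edge epithelium, was close to the limit of detection in untreated colon, with 11 to 24 counts per library. It was at 1.503 and 1.35 CPM in untreated WT, 1.36 and 0.936 in untreated VAA and 1.55 and 1.43 in untreated KO. After DSS it was at 142, 238 and 97.3 CPM in WT, 604, 283 and 328 in VAA, and 213, 93.4 and 103 in KO. The 3 VAA libraries were the 3 highest and the WT and KO libraries were interleaved. *Plet1* rose with a log2 fold change of 6.80 ± 0.61 (SE) in WT, 8.44 ± 0.66 in VAA and 6.51 ± 0.61 in KO (edgeR adjusted P of 1.8e-05, 5.3e-06 and 6.9e-05). Of its 31-base words, 13.6% occur in other annotated transcripts, chiefly the antisense gene *Plet1os*, and the counting is not stated to use strand.

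*Clca4b*, a member of the calcium-activated chloride channel regulator family of surface epithelium, had the highest CPM of the 9 genes after DSS. In untreated colon it was at 10.1 and 7.06 CPM in WT, 14.9 and 14.5 in VAA, and 7.63 and 9.27 in KO. DSS libraries were at 2099, 1384 and 1570.4 CPM in WT, 2426, 3241 and 2191 in VAA, and 1941, 1606 and 1452 in KO. Again the 3 VAA libraries were the 3 highest, while the WT and KO means (1685 ± 371 and 1666 ± 250.3, SD, n = 3) differed by less than either SD. *Clca4b* rose in all 3 genotypes, with log2 fold changes of 7.62 ± 0.32 in WT, 7.48 ± 0.31 in VAA and 7.62 ± 0.32 in KO (edgeR adjusted P of 4e-08, 4.3e-08 and 3.9e-08). Its sequence shares 43.5% of its 31-base words with other genes, mostly the neighbour *Clca4a*, so the split of reads between them is uncertain. *Clca4a* itself was at group means of 201 to 310 CPM in all 6 groups and was not called (log2 fold change 0.28, edgeR adjusted P = 0.32 averaged over genotypes).

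*Sprr1a*, a small proline-rich protein of the cornified envelope that is induced in stressed epithelia, rose from low levels, with 19 to 26 counts in untreated libraries. Its untreated levels were 1.71 and 1.28 CPM in WT, 1.36 and 1.70 in VAA, and 1.68 and 1.43 in KO. Levels after DSS were 17.8, 14.5 and 10.5 CPM in WT, 21.7, 26.3 and 15.9 in VAA, and 10.5, 13.4 and 11.5 in KO. VAA replicates 1 and 2 were the highest, and VAA replicate 3 lay within the WT range. The log2 fold change was 3.25 ± 0.31 in WT, 3.80 ± 0.32 in VAA and 2.92 ± 0.31 in KO (edgeR adjusted P of 2.7e-05, 8.4e-06 and 2e-04). None of its 31-base words occurred in another gene.

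*Krt7*, a keratin of simple and transitional epithelia, was already plain in untreated colon and changed least among the genes that rose. It was at 72.8 and 82.7 CPM in untreated WT, 63.9 and 73.4 in VAA, and 74.9 and 82.2 in KO. In the DSS groups it was at 159, 204 and 152 CPM in WT, 132, 161 and 249.9 in VAA, and 152, 157 and 125 in KO. The highest value was that of VAA DSS replicate 3 and the lowest that of KO DSS replicate 3, and the genotypes overlapped. *Krt7* rose by 1.14 ± 0.23 on the log2 scale in WT (edgeR adjusted P = 0.0034), 1.40 ± 0.23 in VAA (adjusted P = 0.00099) and 0.88 ± 0.23 in KO (adjusted P = 0.03). The call in KO was lost when libraries were scaled to the epithelial reference genes (0.53 ± 0.26, edgeR adjusted P = 0.16), with sex as a covariate (0.96 ± 0.27, adjusted P = 0.054), and without either untreated KO library or KO DSS replicate 1 or 2 (0.81 to 0.95, adjusted P of 0.071 to 0.19). The call in WT was lost without WT untreated replicate 1 (1.04 ± 0.31, edgeR adjusted P = 0.054).

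Because *Sprr1a* and *Krt7* are also made in squamous and anorectal epithelium, markers of that tissue are given beside them. Of 19 squamous genes 10 were tested, and 5 rose and 1 fell with DSS averaged over genotypes (22.5% and 20.0% of all genes tested). Their summed level was 168 to 173 CPM in untreated WT, 174 to 187 in VAA and 157 to 195 in KO, and after DSS 208 to 220 in WT, 202 to 260 in VAA and 238 to 284 in KO. *Perp*, a desmosome gene that simple epithelium also makes, held most of that sum, with 1737 to 4255 counts per library, and rose by 0.36 on the log2 scale (edgeR adjusted P = 0.0067). The other 4 that rose were lower in counts. *Krt13*, a keratin of internal squamous epithelium, had 0 to 4 counts in untreated libraries and 8 to 37 after DSS, and the desmosomal cadherin *Dsg3* had 2 to 15 and 8 to 195 (log2 fold changes of 4.10 and 2.45, edgeR adjusted P of 2.9e-05 and 0.0014). The stress keratins *Krt6a* and *Krt6b* had 0 to 3 and 0 to 2 counts in untreated libraries and 0 to 28 and 0 to 48 after DSS. In KO alone *Dsg3* had 15 and 7 counts untreated and 8, 16 and 8 after DSS. There *Krt6a* went from 0 and 0 to 0, 3 and 1, *Krt6b* from 0 and 0 to 5, 0 and 2, and *Krt13* from 4 and 1 to 16, 26 and 8. The basal keratins *Krt5* (0 to 21 counts) and *Krt14* (5 to 24 counts) and the cornification gene *Krtdap* (0 to 2 counts) were low in all 15 libraries. The part of squamous epithelium in the *Sprr1a* and *Krt7* values was not tested.

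*Ly6a*, a glycolipid-anchored surface protein, was plain in untreated colon and rose in all 3 genotypes. Untreated levels were 108 and 113 CPM in WT, 193 and 119 in VAA, and 75.4 and 147 in KO. After DSS it was at 844, 817 and 648 CPM in WT, 942, 1048 and 889 in VAA, and 1049, 754 and 773 in KO. KO replicate 1 was the highest of the 9 DSS libraries and WT replicate 3 the lowest. The log2 fold change was 2.80 ± 0.29 in WT, 2.62 ± 0.29 in VAA and 2.95 ± 0.29 in KO (edgeR adjusted P of 4.8e-05, 4.8e-05 and 0.00011). *Ly6a* shares 31.9% of its 31-base words with other genes, mostly *Ly6c1*, a gene of endothelium and monocytes that rose by 3.91 on the log2 scale (edgeR adjusted P = 1.2e-08). *Ly6c1* had group means of 10.2 to 12.9 CPM in untreated colon and 129 to 254 after DSS, below those of *Ly6a* in each group. Endothelium also carries *Ly6a*. Of 10 endothelial genes 1 (*Ly6c1*) rose and 1 fell (22.5% and 20.0% of all genes tested). Their summed levels were 88.6 to 111 CPM untreated and 176 to 644 after DSS. *Ly6c1* itself held most of that difference, since in WT the mean sum was 105 CPM untreated and 262 after DSS and *Ly6c1* made up 12.2 and 167 of it. The part of endothelium in the *Ly6a* values was not tested.

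*Plaur*, which binds urokinase at the cell surface and so places plasmin formation at the edge of migrating cells, rose in all 3 genotypes and reached the lowest level in KO. It was at 1.84 and 3.57 CPM in untreated WT, 3.15 and 3.49 in VAA, and 3.10 and 3.28 in KO. The DSS libraries had 33.2, 25.6 and 26.2 CPM in WT, 41.1, 33.6 and 35.4 in VAA, and 9.77, 10.98 and 11.1 in KO. The 3 genotypes did not overlap after DSS, with VAA highest and KO lowest (means of 36.7 ± 3.90, 28.3 ± 4.2 and 10.6 ± 0.753 CPM in VAA, WT and KO, SD, n = 3). *Plaur* rose by 3.38 ± 0.25 on the log2 scale in WT, 3.47 ± 0.25 in VAA and 1.73 ± 0.24 in KO (edgeR adjusted P of 5.2e-06, 3.6e-06 and 0.00094).

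*Anxa1* was at 126 and 124 CPM in untreated WT, 132 and 133 in VAA, and 93.3 and 122 in KO. After DSS it was at 334, 316 and 297 CPM in WT, 304, 404 and 436 in VAA, and 275, 218 and 187 in KO. The 3 KO libraries were the 3 lowest of the 9, and WT and VAA overlapped. *Anxa1* rose by 1.34 ± 0.19 on the log2 scale in WT, 1.53 ± 0.19 in VAA and 1.07 ± 0.19 in KO (edgeR adjusted P of 0.00032, 0.00012 and 0.0038). The call in KO was lost without KO untreated replicate 1 (0.89 ± 0.23, edgeR adjusted P = 0.068).

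*Clu*, a secreted chaperone, varied more between libraries of a group than between groups. Its untreated levels were 12.8 and 29.3 CPM in WT, 19.7 and 61.9 in VAA, and 9.95 and 36.4 in KO. DSS libraries were at 29.6, 29.3 and 30.8 CPM in WT, 22.1, 54.3 and 26.5 in VAA, and 57.2, 5.80 and 27.1 in KO. Both the highest and the lowest DSS libraries were KO, and the coefficient of variation within that group was 86.0%, against 2.78% in WT DSS. Averaged over genotypes its log2 fold change was 0.21 ± 0.44 (edgeR adjusted P = 0.73), with a 95% interval from -0.73 to 1.16. A 2-fold rise lies within that interval and a 2-fold fall outside it, so a small change in either direction is not excluded with this spread.

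*Ctgf* took the direction opposite to the other genes, and 1 library decided its value in VAA. Untreated levels were 24.1 and 41.3 CPM in WT, 24.4 and 27.3 in VAA, and 25.7 and 40.9 in KO. After DSS the values were 14.2, 12.6 and 9.44 CPM in WT, 16.2, 9.94 and 81.5 in VAA, and 10.1, 7.09 and 6.69 in KO. Of the 9 DSS libraries 8 lay below every untreated library, and VAA DSS replicate 3 lay above all 15. Averaged over genotypes *Ctgf* fell by 1.02 ± 0.36 on the log2 scale (edgeR adjusted P = 0.038), and no genotype was called alone (WT -1.44 ± 0.63, edgeR adjusted P = 0.11, VAA 0.46 ± 0.64, adjusted P = 0.67, KO -2.07 ± 0.64, adjusted P = 0.056). Without VAA DSS replicate 3 it fell in each genotype, with values of -1.43 ± 0.28 in WT, -0.98 ± 0.32 in VAA and -2.07 ± 0.29 in KO (edgeR adjusted P of 0.0016, 0.034 and 0.00042), so the VAA value reversed. Of its 31-base words 19.7% occur in other annotated transcripts, nearly all of them in *Gm15270*, so its counts are uncertain to that extent. The male libraries had the higher of the 2 untreated values in WT and in KO. The averaged call was lost with sex as a covariate (-0.75 ± 0.42, edgeR adjusted P = 0.19), and when any of 9 libraries was left out (edgeR adjusted P of 0.057 to 0.11), which were VAA untreated replicates 1 and 2, replicate 2 of untreated WT and KO, VAA DSS replicate 1, and replicates 2 and 3 of WT DSS and of KO DSS.

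Fibroblasts, endothelium and smooth muscle are known sources of *Ctgf*, and their markers are given beside it. VAA DSS replicate 3 had a summed fibroblast level of 4763 CPM against 1108 to 2474 in the other 8 DSS libraries, and an endothelial level of 644 against 176 to 351. The 10 smooth muscle genes all fell with DSS averaged over genotypes, from summed levels of 4015 to 7140 CPM untreated to 631 to 2598 after DSS, where VAA DSS replicate 3 was the highest and KO DSS replicate 3, the library with the lowest *Ctgf*, was next at 2020 CPM. Of 12 fibroblast genes 6 fell and 0 rose (20.0% and 22.5% of all genes tested), with summed levels of 2094 to 3279 CPM in untreated colon. All 3 marker sums were highest in VAA DSS replicate 3. The endothelial sum was 88.6 to 111 CPM in untreated colon, and in WT *Ly6c1* held most of its difference with DSS. The part of these cells in the *Ctgf* values was not tested.

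**Figure D2:**
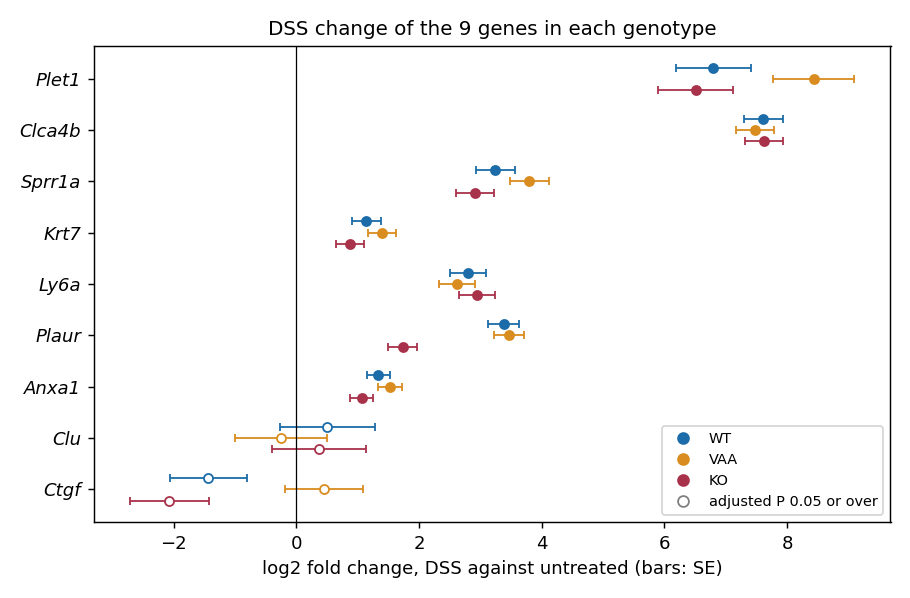
The plot gives the log2 fold change of DSS against untreated for each gene (rows) in WT, VAA and KO, with bars for the standard error and open points where the adjusted P was 0.05 or over. *Plet1* and *Clca4b* lie between 6.51 and 8.44, *Plaur* in KO at 1.73 lies apart from WT and VAA at 3.38 and 3.47, and *Clu* and *Ctgf* are open in every genotype.

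Set per kilobase of exon sequence, the order of the genes changed between untreated and treated colon. The length was the union of all annotated exons (7049 bases for *Krt7*), not that of the transcripts present. Places between genes therefore depend on the annotation. In untreated WT the mean level was 91.7 CPM per kilobase for *Ly6a*, 43.0 for *Anxa1*, 11.4 for *Ctgf*, 11 for *Krt7*, 6.12 for *Clu*, 2.87 for *Clca4b*, 1.85 for *Sprr1a*, 1.03 for *Plaur* and 0.731 for *Plet1*. In WT after DSS it was 639 for *Ly6a*, 562 for *Clca4b*, 108 for *Anxa1*, 81.7 for *Plet1*, 24.3 for *Krt7*, 17.7 for *Sprr1a*, 10.8 for *Plaur*, 8.70 for *Clu* and 4.23 for *Ctgf*. *Clca4b* thus moved from the sixth place to the second and *Plet1* from the ninth to the fourth, while *Ctgf* moved from the third to the ninth.

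The next question was whether the *Tert* genotypes differ after DSS. In KO against WT, *Plaur* fell and the other 8 genes were not called, where 3.21% of all genes tested were higher in KO and 2.46% lower. In KO against VAA, 6 of the 9 were lower in KO (*Plet1*, *Clca4b*, *Sprr1a*, *Plaur*, *Anxa1* and *Ctgf*) and 0 were higher, where 6.01% of genes were higher and 9.41% lower. In VAA against WT, edgeR called 0 of the 9 and 0.00572% of genes. DESeq2 and limma also called 0 of the 9 there. By group means VAA was the highest for all 9 genes after DSS, and KO was the lowest for 7, all but *Ly6a* and *Clu*. For *Krt7* the place of VAA rested on replicate 3, as replicates 1 and 2 (132 and 161 CPM) were below the WT mean of 172, and for *Clu* on replicate 2, as replicates 1 and 3 (22.1 and 26.5 CPM) were below the WT mean of 29.9. The 3 comparisons share libraries and are not independent of each other. The median over the 9 genes was -0.25 on the log2 scale in KO against WT (-0.01 over all genes), -0.75 in KO against VAA (-0.01) and 0.37 in VAA against WT (0.03).

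*Plaur* fell by 1.41 ± 0.19 on the log2 scale in KO against WT (edgeR adjusted P = 0.0026) and by 1.79 ± 0.19 against VAA (adjusted P = 0.00031), which is 2.66-fold and 3.45-fold lower. Both calls held under all 24 alternatives tried. *Anxa1* was lower in KO than in WT in every library, at -0.48 ± 0.16 (edgeR adjusted P = 0.098), and fell by 0.75 ± 0.16 against VAA (adjusted P = 0.0086). Its difference from WT was called in 4 of the 24 alternatives, of which 1 left out VAA DSS replicate 3 (edgeR adjusted P = 0.04). The untreated KO libraries were also below the untreated WT libraries for *Anxa1*, at -0.21 ± 0.20, which was not called. After DSS the shares of such separated groups were as follows. Against WT, 2 of the 9 genes (*Plaur* and *Anxa1*) had all KO libraries below all WT libraries, and 19.5% of genes tested did. Against VAA, 5 of the 9 did, all called ones but *Ctgf*, and 14.6% of genes tested did.

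*Plet1* fell by 1.57 ± 0.37 in KO against VAA (edgeR adjusted P = 0.013), *Sprr1a* by 0.85 ± 0.23 (adjusted P = 0.023) and *Clca4b* by 0.65 ± 0.19 (adjusted P = 0.037). Against WT the same genes differed by -0.22 ± 0.36, -0.27 ± 0.23 and -0.02 ± 0.19, and their 95% intervals ran from -1.001 to 0.56, from -0.76 to 0.22 and from -0.43 to 0.40. *Clca4b* was already lower in KO than in VAA in untreated colon, at -0.80 ± 0.26, though not called there. *Ctgf* fell by 2.16 ± 0.60 against VAA (edgeR adjusted P = 0.029), a call that was lost without VAA DSS replicate 3 (-0.72 ± 0.30, adjusted P = 0.15) and without any KO DSS replicate (adjusted P of 0.066 to 0.097). *Krt7* (-0.32 ± 0.20, adjusted P = 0.33), *Ly6a* (-0.16 ± 0.23, adjusted P = 0.73) and *Clu* (-0.20 ± 0.67, adjusted P = 0.90) were not called by edgeR against VAA.
The 6 calls against VAA became 1 (*Plaur*) when only the 6 libraries of these groups were fitted, where the calls over all genes went from 2695 to 511 and the log2 fold changes stayed close (*Plet1* -1.58, *Clca4b* -0.66, *Anxa1* -0.77, *Sprr1a* -0.86 and *Ctgf* -2.21). They became 3 when replicate 2 of KO DSS was left out and 2 when replicate 3 was. Without VAA DSS replicate 2, *Clca4b* (-0.47 ± 0.19, edgeR adjusted P = 0.097) and *Sprr1a* (-0.67 ± 0.24, adjusted P = 0.062) were not called, and *Sprr1a* was not called without KO DSS replicate 1 (-0.76 ± 0.26, adjusted P = 0.092). *Clca4b* was not called without either untreated VAA library (-0.65 ± 0.20, edgeR adjusted P = 0.054). Among the 9 DSS libraries, KO replicate 3 was among the lowest 3 for 8 of the 9 genes and KO replicate 2 for 6, while VAA replicate 2 was among the 3 highest for 8.

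In VAA against WT after DSS the 4 genes with an unadjusted edgeR P under 0.05 were all higher in VAA, and each had an adjusted P of 0.28. They were *Plet1* (1.35 ± 0.37), *Clca4b* (0.64 ± 0.19), *Sprr1a* (0.58 ± 0.23) and *Ctgf* (1.56 ± 0.58). *Clca4b* differed by 0.77 ± 0.26 in untreated colon, where it was not called either. After DSS the *Ctgf* difference ran from 0.11 to 2.01 over the 24 alternatives. VAA DSS replicates 1 and 2 had 16.2 and 9.94 CPM of *Ctgf*, against 81.5 in replicate 3 and 9.44 to 14.2 in WT DSS. All 3 VAA libraries were above all 3 WT libraries for 4 genes (*Plet1*, *Clca4b*, *Ly6a* and *Plaur*), which held for 8.76% of genes tested. Without VAA DSS replicate 2, edgeR called *Plet1* (1.55 ± 0.38, adjusted P = 0.045) and *Ctgf* (2.01 ± 0.49, adjusted P = 0.044), so that library decided the count of 0. In that fit 848 of 17426 genes were called, against 1 of 17477 with all libraries, and *Ctgf* there compares 16.2 and 81.5 CPM in VAA with WT.

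**Figure D3:**
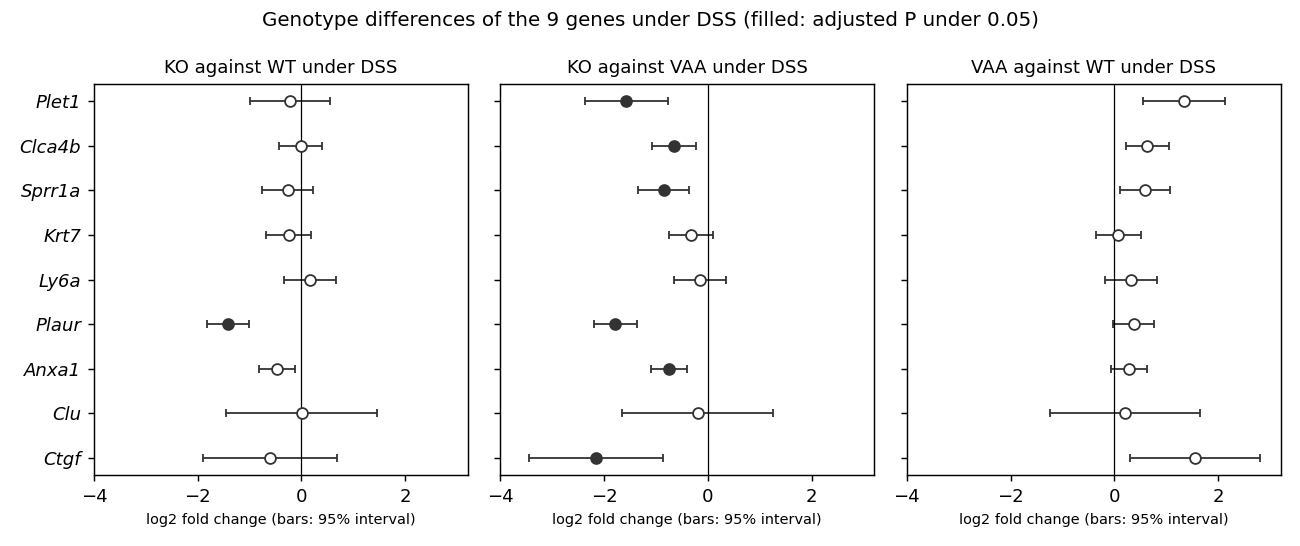
Each panel gives a pair of genotypes after DSS, with the log2 fold change of each gene and its 95% interval, filled where the adjusted P was under 0.05. *Plaur* is filled in both panels with KO, 6 genes are filled in KO against VAA, and none is filled in VAA against WT.

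Cell type markers also differed between these groups. Over all genes tested, 3.21% were higher and 2.46% lower in KO than in WT after DSS. The summed level of 14 neutrophil genes was 378 to 464 CPM in WT DSS, 422 to 835 in VAA DSS and 118 to 160 in KO DSS, against 81.3 to 120 in untreated colon of all genotypes, and 10 of the 14 fell in KO against WT. *S100a9*, which marks neutrophils, was at 58.0 to 92.1 CPM in WT DSS and 4.38 to 7.16 in KO DSS. Macrophage and monocyte genes summed to 368 to 602 CPM in WT DSS, 498 to 703 in VAA DSS and 273 to 373 in KO DSS, and 1 of 13 fell in KO against WT. Goblet cell genes summed to 6091 to 8603 CPM in WT DSS, 5445 to 7242 in VAA DSS and 12800 to 15590 in KO DSS, and 6 of 12 were higher in KO than in WT. Neutrophils and macrophages carry *Plaur* and *Anxa1* as well as epithelium, and the part of these cells in the KO values was not tested.

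Scaled to the epithelial reference genes in place of the trimmed mean, the median of all genes moved to -0.39 in KO against WT and -0.47 in KO against VAA, with 190 genes higher and 4188 lower in the first and 298 higher and 6675 lower in the second. With the trimmed mean the split was 561 higher and 430 lower, and 1051 higher and 1644 lower. On that scale *Plaur* fell by 1.79 ± 0.22 and *Anxa1* by 0.87 ± 0.15 in KO against WT (edgeR adjusted P of 0.00084 and 0.0029). In KO against VAA 8 of the 9 were lower, with *Ly6a* (-0.63 ± 0.19, edgeR adjusted P = 0.021) and *Krt7* (-0.81 ± 0.23, adjusted P = 0.015) added. Relative to the shifted median, the *Anxa1* and *Ly6a* values were about as far from the bulk of genes as on the first scale.

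**Figure D4:**
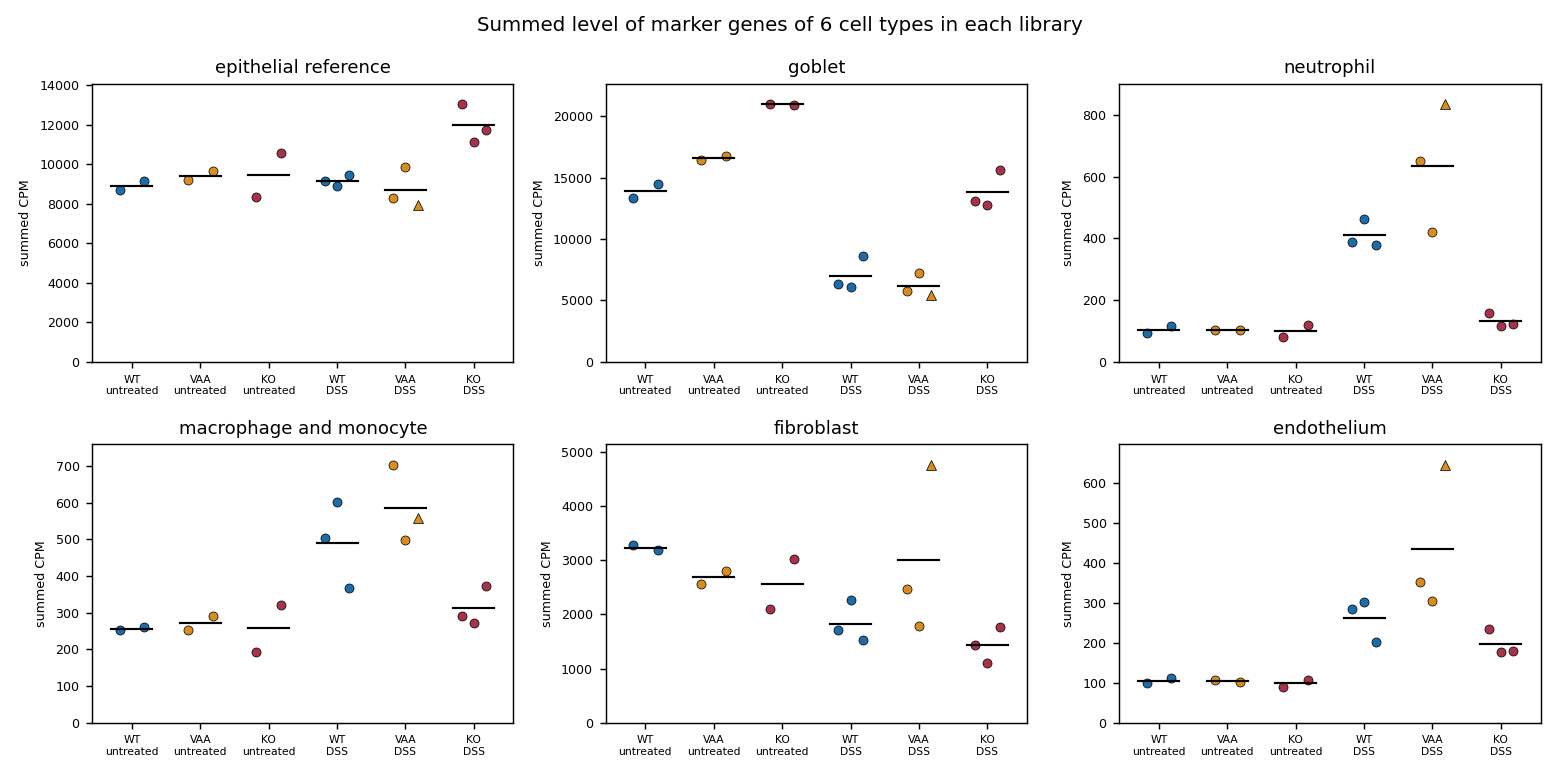
Each panel plots the summed CPM of marker genes of a cell type against the 6 groups, with points for libraries (a triangle for VAA DSS replicate 3) and bars for group means. Neutrophil sums in KO DSS (118 to 160) lie below those of WT and VAA DSS, goblet sums in KO DSS lie above them, and VAA DSS replicate 3 is highest for fibroblast and endothelium.

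Untreated colon gave no called difference among the 9 genes between any pair of genotypes, where edgeR called 0% of genes in each pair. At an unadjusted P under 0.05 there was 0 of the 9 in KO against WT and 1 in each comparison with VAA, which was *Clca4b* (0.77 ± 0.26 in VAA against WT and -0.80 ± 0.26 in KO against VAA). DESeq2 and limma also called 0 of the 9 in these pairs. Over all genes, 352 had an unadjusted edgeR P under 0.05 in KO against WT, 401 in KO against VAA and 233 in VAA against WT, and DESeq2 called 9, 3 and 2 and limma 1, 0 and 0. With 2 libraries per group the 95% intervals were wide, for example from -0.60 to 0.56 for *Clca4b* and from -1.67 to 1.94 for *Clu* in KO against WT.

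Whether DSS acts to a different degree in the genotypes was tested as an interaction, and edgeR called 0 of the 9 genes and 0% of all genes in KO minus WT and in VAA minus WT. *Plaur* had the largest KO interaction of the 9, at -1.65 ± 0.33 (edgeR adjusted P = 0.22), and it was the only one of the 9 with an unadjusted P under 0.05. DESeq2 called it (-1.66 ± 0.36, adjusted P = 0.0035) and limma on the deposited log2 values called 0 of the 9. Over all genes 1735 had an unadjusted edgeR P under 0.05 in KO minus WT and 1259 in VAA minus WT, and DESeq2 called 133 and 0 and limma 9 and 0. In VAA minus WT 0 of the 9 had an unadjusted P under 0.05 by edgeR, and DESeq2 and limma called 0, with *Ctgf* at 1.90 ± 0.90 and *Plet1* at 1.64 ± 0.88. Over the 24 alternatives these values ran from 0.449 to 2.345 for *Ctgf* and from 1.235 to 2.05 for *Plet1*.

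The 9 genes were then set beside other genes of the same processes, none of which is a member. The shares over all genes tested apply to each list count that follows. With DSS averaged over genotypes 22.5% rose and 20.0% fell. After DSS 3.21% were higher and 2.46% lower in KO than in WT, and 6.01% higher and 9.41% lower in KO than in VAA. The list counts in KO against VAA depend on the fit of all 15 libraries. With only the groups compared, calls over all genes there went from 2695 to 511, and the lists were not counted in that fit. Of 44 other fetal and regenerative epithelium genes tested, 34 rose and 4 fell with DSS averaged over genotypes, with a median of 0.80 on the log2 scale against 0.01 over all genes. *S100a11*, a calcium-binding partner of annexin A1, rose by 1.90 ± 0.11 and *Duox2*, a hydrogen peroxide-producing oxidase of the epithelial surface, by 2.57 ± 0.19 (edgeR adjusted P of 6.9e-08 and 5.1e-07). *Itga3*, a laminin-binding integrin, rose by 0.82 ± 0.07 (edgeR adjusted P = 1.2e-06). In KO against WT after DSS 10 of the 44 fell and 0 rose, and in KO against VAA 18 fell and 3 rose. *Ereg*, an EGF receptor ligand, was at 43.3 to 76.7 CPM in WT DSS, 39.5 to 96.0 in VAA DSS and 8.53 to 10.7 in KO DSS, against 8.85 to 13.96 in untreated colon of all genotypes. It fell by 2.65 ± 0.29 in KO against WT (edgeR adjusted P = 0.0007). *Mmp10*, a stromelysin of migrating epithelium, fell by 4.76 ± 0.74 (edgeR adjusted P = 0.0048) and *Gja1*, the gap junction protein connexin 43, by 1.29 ± 0.22 (adjusted P = 0.0076).

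Of 13 partners of the urokinase receptor tested, 7 rose and 0 fell with DSS, and in KO against VAA 10 fell and 0 rose. *Mmp9*, a gelatinase downstream of plasmin, was at 11.9 to 18.4 CPM in WT DSS and 1.47 to 2.25 in KO DSS, and fell by 3.11 ± 0.39 in KO against WT (edgeR adjusted P = 0.0017). *Itgam*, the integrin with which the receptor pairs on myeloid cells, fell by 1.504 ± 0.26 (edgeR adjusted P = 0.0089), and these were the 2 of 13 called in KO against WT. *Plau*, which encodes urokinase, rose by 0.88 ± 0.24 with DSS averaged over genotypes (edgeR adjusted P = 0.0086) and fell by 1.67 ± 0.36 in KO against VAA (adjusted P = 0.009). It was named after its values were seen.

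Of the 7 receptors and partners of annexin A1 tested, 3 rose and 2 fell with DSS and 3 were lower in KO than in WT. The formyl peptide receptor *Fpr2* was at 5.54 to 12.3 CPM in WT DSS and 1.09 to 1.56 in KO DSS, and *Fpr1* was at 4.6 to 6.97 and 0.155 to 0.594. Both are made chiefly by myeloid cells, and both fell in KO against WT (log2 fold changes of -2.94 ± 0.40 and -4.03 ± 0.53, edgeR adjusted P of 0.0026 and 0.0028). In the annexin family itself, 6 of 10 rose and 2 fell with DSS, with the family's *Anxa2* at 0.88 ± 0.08 with DSS (edgeR adjusted P = 1.6e-06).

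Genes tied to YAP did not share a direction. Of 32 targets of YAP and TEAD factors 8 rose and 10 fell with DSS, with a median of -0.14 on the log2 scale, and of 21 genes of the Hippo core 7 rose and 4 fell. *Tead4* rose by 2.40 ± 0.25 (edgeR adjusted P = 7e-06), while *Crim1* fell by 1.93 ± 0.13 and *Edn1*, encoding endothelin 1, fell by 2.98 ± 0.22 (edgeR adjusted P of 2.4e-07 and 5.4e-07). In the CCN family, to which *Ctgf* belongs, the YAP target *Cyr61* had a log2 fold change of 0.63 with DSS (edgeR adjusted P = 0.082). In KO against VAA 14 of the 32 targets and 2 of the 5 other CCN genes fell and 0 rose, and in KO against WT 2 of the 32 fell and 1 rose. Without VAA DSS replicate 3 the count with DSS was 8 higher and 15 lower, and that in KO against VAA 2 higher and 10 lower. Over all 17361 genes of that fit, 4785 were higher and 4371 lower with DSS, and 870 higher and 1146 lower in KO against VAA. On the scale of the epithelial reference 22 of the 32 were lower in KO than in VAA, where 6675 of all 17477 genes tested were lower.

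Among relatives of the other members, 4 of the 7 other *Clca* genes rose and 2 fell with DSS. *Clca3b* rose by 2.79 ± 0.11 (edgeR adjusted P = 2.8e-09), and *Clca1*, a goblet cell product, fell by 2.57 ± 0.20 (adjusted P = 7.4e-07). Of 16 other small proline-rich and cornified envelope genes 9 rose and 3 fell, of 10 other keratins 7 rose and 1 fell, and of 21 other *Ly6* genes 10 rose and 2 fell. Of 12 partners of clusterin and other extracellular chaperones 6 rose and 2 fell, and *Serpina3n*, an acute-phase protease inhibitor, rose by 4.16 ± 0.39 (edgeR adjusted P = 2.8e-06). Of 15 genes of the adult Wnt and stem cell program 8 fell and 1 rose with DSS. *Znrf3* and *Rgmb* fell by 0.83 ± 0.09 and 0.73 ± 0.09 (edgeR adjusted P of 9.1e-06 and 1.9e-05). A marker list of 10 stem and cycling crypt cell genes was mixed, as 4 cell cycle genes rose (*Top2a*, *Ccnb1*, *Ube2c* and *Birc5*, by 0.82 to 1.22 on the log2 scale) and the Wnt-dependent *Lgr5* and *Axin2* fell. Its summed level was 622 to 952 CPM in untreated libraries and 966 to 1625 in all DSS libraries but VAA DSS replicate 3, which was at 364.5.

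**Figure D5:**
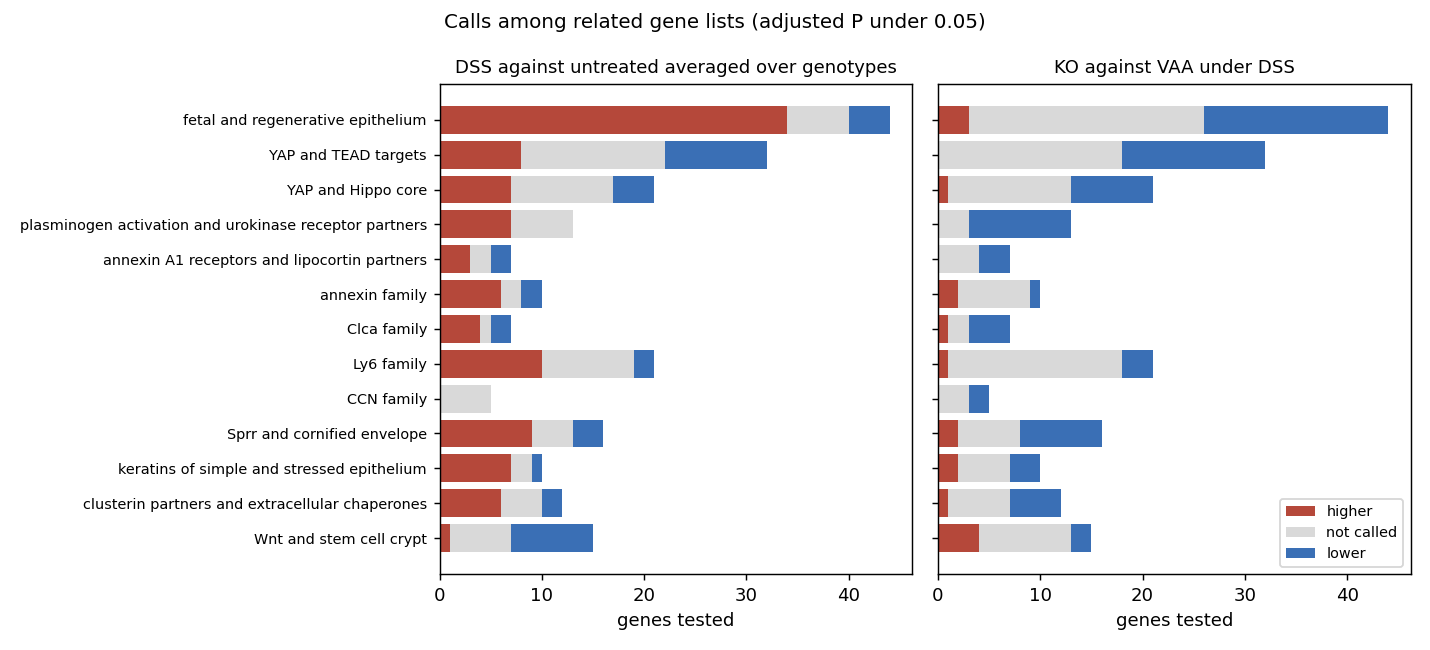
Stacked bars count the tested genes of 13 lists that were called higher (red), called lower (blue) or not called (grey) with DSS averaged over genotypes (left) and in KO against VAA after DSS (right). The fetal and regenerative list shows 34 higher and 4 lower on the left and 3 higher and 18 lower on the right.

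For each of the 9 genes the tested genes with the most similar pattern were found by the root mean square difference of centred log2 CPM over the 15 libraries, where 0 would be the same pattern. The gene nearest to *Plet1* was *Clca4b* (0.694), and *Nos2*, the inducible nitric oxide synthase, came next (0.755). *Clca4b* was nearest to *Retnlb* (0.612), a goblet cell product induced in colitis, and *Sprr1a* to *Dhrs9* (0.310) and *Clca3b* (0.370). *Plaur* was nearest to *Trim15* (0.367) and *Mefv* (0.380), the latter encoding pyrin. *Ly6a* was nearest to *H2-Q7* (0.352), a nonclassical class I gene, *Anxa1* to *Arf2* (0.162), *Krt7* to *Epb41l2* (0.201) and *Clu* to *Spib* (0.405), a transcription factor of M cells and lymphocytes. *Ctgf* was nearest to *Tgfb3* (0.190), a growth factor of stroma, whose group means of log2 CPM were 3.51 in untreated WT, 2.02 in WT DSS, 3.01 in VAA DSS and 1.46 in KO DSS. The likeness is a description over 15 libraries that share their treatment groups and depth.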

How the data were processed

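RNA-seq of whole mouse colon gave 15 libraries (76-base paired-end, total RNA), in 6 groups of 2 or 3. The deposited table holds the authors' estimated counts for each gene symbol, made with kallisto 0.46 on mm10 per the submitters' processing notes, and a table of log2 CPM values. Neither the annotation nor the summing of transcripts is given in the sources used here. Rounding changed 0 counts. The deposited log2 values cover 17531 genes and differed by at most 0.018 from log2 CPM recomputed here with a prior count of 2. Counts of 10.56 to 17.54 M per library limit the precision of genes with few counts, which is counting error only.

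Of 32544 symbols, 17477 passed filterByExpr and 8053 were at 0 throughout. All 15 libraries were fitted together with edgeR 4.0.16 in R 4.3.3 (trimmed mean of M values scaling, quasi-likelihood test, 6 group means, 9 residual degrees of freedom), and 12 comparisons were each adjusted by Benjamini-Hochberg over all genes tested, with a threshold of 0.05. Replicates differed by more than counting noise. Of 33 pairs of samples with the same replicate number, 8 had correlated deviations above 0.1 (range -0.16 to 0.31). Pairs with unlike numbers were not set beside them, so this cannot decide whether the numbers pair the samples. The main fit took no pairing. Alternatives were DESeq2 1.42.0, limma 3.58.1, other scaling and filters, a sex covariate, a replicate block, fits of only the groups compared, and leaving out each library. The test of KO against WT after DSS was also run on simulated counts, which held no outlying library and no sex difference.

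The members and the 24 gene lists (304 of 338 genes tested) were chosen with earlier results of these data known. Named genes were the 9 members, *Tert*, and per list up to 4 called genes with the smallest P with DSS averaged over genotypes and up to 4 in KO against WT after DSS (up to 2 for marker lists). *Plau*, *Cyr61*, *Clca4a* and the squamous and crypt genes named were added after their values were seen.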

Additional observations from a re-analysis of the deposited data

How the results depend on the processing

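Over 24 alternatives, 2519 of 2583 values for the 9 genes kept their side of the threshold, 42 lost a call, 21 gained a call and 1 reversed. Called values among the 2519 also kept their direction. Values without a call in both fits were counted as kept whatever their sign, and some changed sign. An example is *Clu* with DSS in KO, which ran from -0.48 to 1.59. The reversed value was *Ctgf* with DSS in VAA, which was -0.98 (edgeR adjusted P = 0.034) without VAA DSS replicate 3 against 0.46 with it, and which ran from -0.98 to 0.91 as single libraries were left out. In KO against WT after DSS 2 of the 9 were called with the epithelial scaling, with only the groups compared and with limma, against 1. In KO against VAA 1 was called with only the groups compared, against 6, and DESeq2 called 1 KO interaction (*Plaur*) against 0. Leaving out each library gave 6 to 8 called with DSS in WT, 7 to 8 in VAA, 5 to 8 in KO, 7 to 8 averaged, 1 to 2 in KO against WT, 2 to 6 in KO against VAA and 0 to 2 in VAA against WT after DSS. With a replicate block 7, 7 and 8 of the 9 were called with DSS in WT, VAA and KO, 8 averaged, 1 in KO against WT and 5 in KO against VAA, where *Ctgf* was lost (-1.81, edgeR adjusted P = 0.072), and *Ctgf* in KO was gained (-2.27, adjusted P = 0.037). Over all genes, KO against WT after DSS gave 991 calls with edgeR and 1730 with DESeq2. The fit without both male libraries and the list counts under other settings were chosen after seeing the data. The cause of these changes was not tested. Genes with few counts, such as *Plet1* and *Sprr1a* in untreated colon, are limited by depth.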
